A study of Mus musculus with 33 samples.

Results

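The 9 genes described here encode the surface receptors, granule proteins and transcription factors of megakaryocytes and platelets: Itga2b, Itgb3, Gp1bb, Gp9, Cd9, Vwf, Pf4, Fli1 and Gata1. They were taken by symbol from the 55376 gene rows of the count tables, where each symbol occurred once. They were followed in total RNA-seq of sorted bone marrow cells of old mice, in hematopoietic stem cells (HSC), common lymphoid progenitors (CLP) and granulocyte-monocyte progenitors (GMP). The mice were C57BL/6 males of 24 to 29 months by the study's methods, and no transgene or deletion is named. O-WT mice were untreated, and O-NR mice received nicotinamide riboside (NR), a vitamin B3 precursor of NAD+, for 4 to 6 weeks in their drinking water. Cohort 2 held 4 O-WT and 4 O-NR libraries of each cell type. Cohort 1 held only HSC libraries, 2 from O-WT mice, 4 under NR (O-NR) and 3 of the group O-NR-RC, sorted 2 months after NR had been withdrawn. HSCs were gated as lineage-negative c-Kit+Sca1+CD34-Flk2-CD150+ cells, so the gate itself selected for CD150.

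Megakaryocytes are the large marrow cells that shed platelets. Integrin αIIbβ3 and the glycoprotein Ib-IX complex let platelets hold on to fibrinogen and von Willebrand factor, and alpha granules release von Willebrand factor and platelet factor 4 at a wound. Part of the stem cell pool of adult mice already carries transcripts of these proteins, such cells give many platelets after transplantation, and the pool is known to become richer in them with age.

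Counted reads per library, the depth behind each value, were 8434214 to 14479453 in HSCs of cohort 2, 4792380 to 12058957 in CLPs, 11755798 to 18213674 in GMPs and 8897256 to 23816042 in cohort 1. Each sorted cell type carried its own markers: a list of 5 stem cell genes summed to 1021 to 1174 CPM, the usual scaling of counts to a common library total, in HSCs of cohort 2 and to at most 116 in the other cells, 5 CLP markers to 2260 to 3855 against at most 35.7, and 5 GMP markers to 17080 to 19680 against at most 559. Lists of other lineages were present too. In cohort 2, 6 B and plasma cell markers summed to 46.7 to 453 CPM in O-WT HSCs and 14.55 to 33.45 in O-NR HSCs, without overlap. There 6 neutrophil markers summed to 52.7 to 180.5 CPM in O-WT CLPs and 15.8 to 152 in O-NR CLPs. A set of 1736 olfactory and vomeronasal receptor genes, which marrow cells do not use, summed to 832 to 8004 CPM in cohort 2. In cohort 1 the sum was 13739 to 14712 in 4 libraries, O-NR replicates 1 and 2 and O-NR-RC replicates 2 and 3, and 4281 to 8731 in the other 5. The test's scaling factors rose with this sum, so values of cohort 1 without these 4 libraries are given for the results described most fully. The deposited table names give 1 animal number to each replicate number of cohort 2. Nothing in the sources used here says the same of cohort 1, so its p-values measure the spread between these libraries, which may be technical. In sorted bulk samples, fewer cells that express a gene and less of its RNA per cell cannot be told apart.

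GATA and ETS factors, the families of Gata1 and Fli1, are known regulators of platelet genes. Promoter windows are shown as a description of the genes, and their part in the levels was not tested. RefSeq promoter windows (assembly GRCm38.p6) were found for 6 of the 9 genes. The 250 bases before the start site are shown 5′ to 3′ for the 3 whose window lay outside annotated exons. They stand for different patterns in the data: Gp9 was higher in HSCs than in both other cell types, Pf4 was found in HSCs and GMPs alike, and Gata1 was not called higher in HSCs. Capitals mark words found on either strand. The words of the GATA family were GATAA together with its variant GATAG in the last base. Those of the ETS family were CGGAAG as the first form, the form AGGAAG with another first base, the form CGGAAA with another last base, and finally AGGAAA with both changed.
Gp9: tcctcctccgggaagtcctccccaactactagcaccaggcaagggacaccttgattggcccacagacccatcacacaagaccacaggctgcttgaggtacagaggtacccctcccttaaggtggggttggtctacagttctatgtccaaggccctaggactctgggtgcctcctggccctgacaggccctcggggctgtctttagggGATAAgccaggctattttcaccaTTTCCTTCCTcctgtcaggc
Pf4: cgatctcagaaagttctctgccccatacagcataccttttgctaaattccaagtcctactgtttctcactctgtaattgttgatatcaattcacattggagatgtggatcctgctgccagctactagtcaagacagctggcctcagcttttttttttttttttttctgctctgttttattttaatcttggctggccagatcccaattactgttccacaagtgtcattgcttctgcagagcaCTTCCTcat
Gata1: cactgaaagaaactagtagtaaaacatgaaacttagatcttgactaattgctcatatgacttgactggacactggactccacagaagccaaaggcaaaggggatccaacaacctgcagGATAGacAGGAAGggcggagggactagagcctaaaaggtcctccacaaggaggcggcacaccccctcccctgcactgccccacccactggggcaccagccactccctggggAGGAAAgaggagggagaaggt
The Gp9 window (chr6:87777820-87778069, plus strand) held 1 GATA word and 2 ETS words, the latter overlapping each other on the opposite strand. In the Pf4 window (chr5:90772185-90772434, plus strand) there were 0 GATA words and 1 ETS word. The Gata1 window (chrX:7967911-7968160, minus strand) held 1 GATA word and 2 ETS words. Of 32851 windows of the same length in the table, 37.4% held a GATA word, 57.2% an ETS word and 21.3% both, so such words are common. The Gp9 and Gata1 windows held the same counts of words. The window of Itga2b held 3 ETS words, that of Cd9 2 ETS words and that of Gp1bb 1 word of each kind. From the 5′ end they reached an annotated exon after 11, 0 and 0 bases, in that order.

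Across the 3 cell types, 7 of the 9 genes had their highest O-WT mean in HSCs, all but Gp1bb and Gata1. Read against gene length, as CPM per kilobase of merged exons, the order of mean levels in O-WT HSCs of cohort 2 was Fli1 (61.2), Itgb3 (48.3), Vwf (29.2), Cd9 (22.5), Itga2b (20.6), Pf4 (10.1), Gp9 (8.38), Gata1 (2.12) and Gp1bb (0.0762). The spread over 4 libraries did not separate Fli1 from Itgb3, Cd9 from Itga2b or Pf4 from Gp9 in that order, and in the O-WT HSCs of cohort 1 Itgb3 (49.8) stood above Fli1 (43.0). In O-WT GMPs the order was Fli1 (32.8), Itga2b (13.9), Cd9 (8.37), Pf4 (8.32), Itgb3 (2.95), Gata1 (2.88), Vwf (1.05), Gp9 (0.688) and Gp1bb (0.0299). Per kilobase of the longest transcript instead, Vwf (53.15) stood above Itgb3 (49.32) in O-WT HSCs of cohort 2. In O-WT GMPs Gata1 (3.70) then stood above Itgb3 (3.01). These places in the order depend on the length used. For scale, the olfactory and vomeronasal receptor genes were read per kilobase of merged exons. Their 95th percentile was 1.14 CPM in O-WT HSCs of cohort 2, 1.74 in O-WT CLPs and 0.597 in O-WT GMPs. Gp1bb lay below that level in every group. Gp9 lay below it in O-WT CLPs, and Gata1 below it in O-NR and O-NR-RC HSCs of cohort 1.

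**Figure D1:**
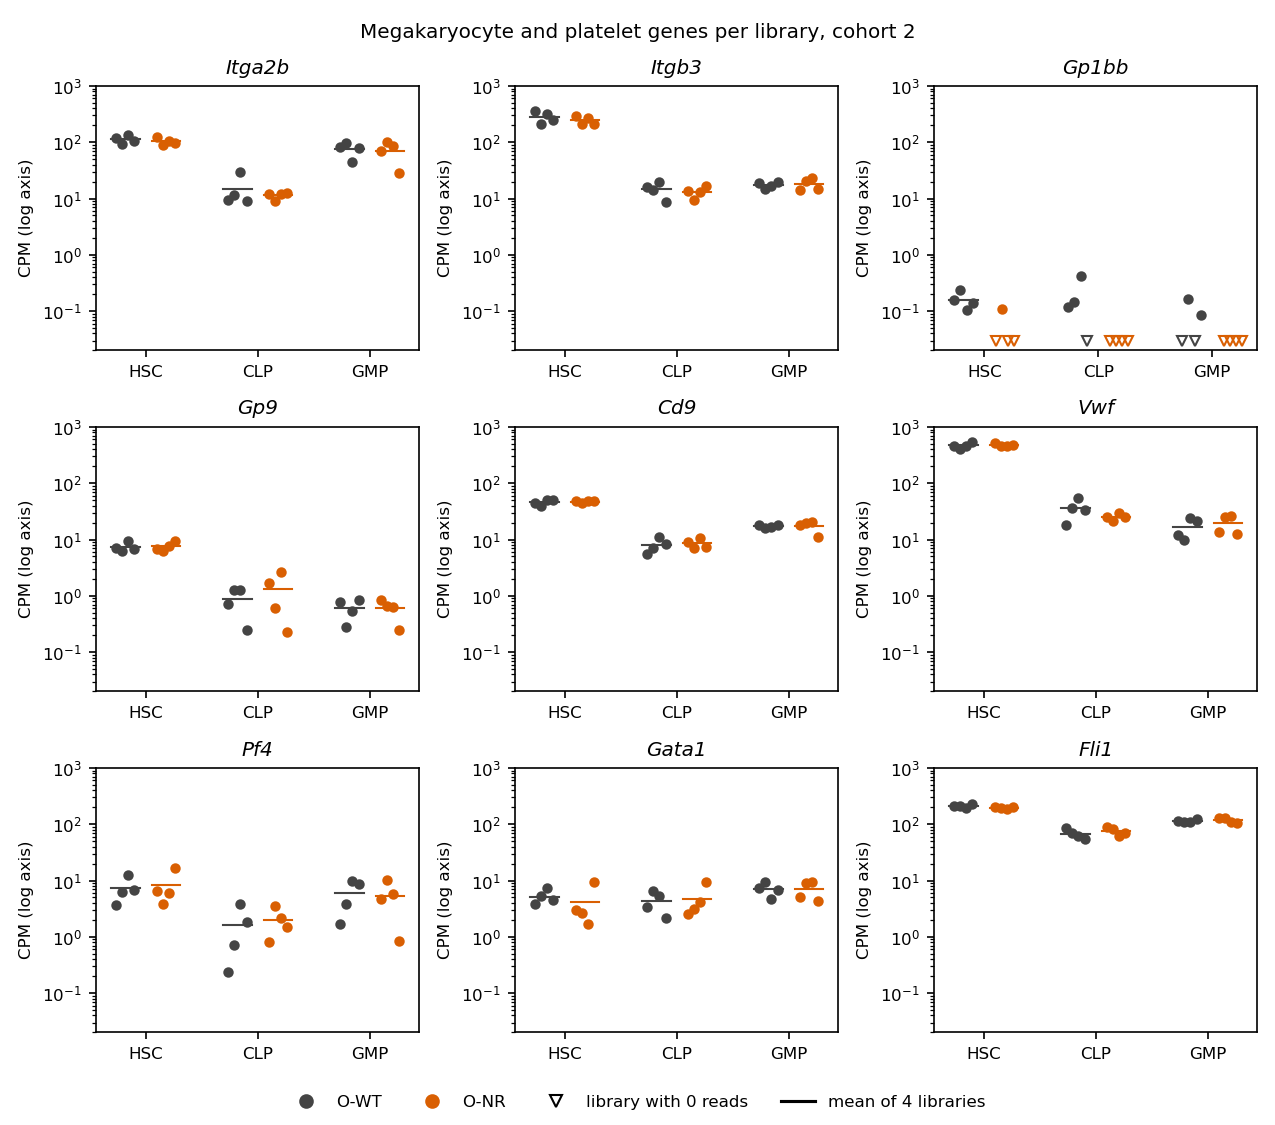
CPM of each of the 9 genes (log axis) in every library of cohort 2, by cell type and treatment, with bars at the mean of 4 libraries and triangles for libraries with 0 reads. Vwf, Itgb3, Gp9, Cd9 and Fli1 sit higher in HSCs than in both other cell types without overlap, Itga2b is low in CLPs only, and the O-WT and O-NR points overlap in every panel.

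Differences between cell types were tested within one treatment, in 12 libraries each, with edgeR's quasi-likelihood test and Benjamini-Hochberg adjustment over all genes tested, and a gene was called at an adjusted p below 0.05. Of the 9 genes 8 passed the filter of more than 3 CPM in at least 4 libraries. Gp9 passed through HSCs alone, with no CLP or GMP library above 3 CPM, so it could enter these tests only by being high in HSCs and its calls add no support to the counts that follow. Gp1bb did not pass. In O-WT mice 7 of the 8 were called higher in HSCs than in CLPs, where 20.7% of 20044 genes were called higher and 9.57% lower. The separate O-NR mice gave the same 7, against 20.9% of 18080 genes called higher and 19.8% lower. Against GMPs 5 of the 8 were called higher in HSCs of O-WT mice (25.7% of all genes called higher, 21% lower) and the same 5 in O-NR mice, with 1 lower (20.8% and 25%). In CLPs against GMPs 1 was called higher and 6 lower in O-WT mice (34.9% and 27.2% of genes), and 0 and 5 in O-NR mice (23.8% and 25.5%). Without scaling, the CPM of the groups did not overlap for 6 of the 9 genes in HSCs over CLPs of O-WT mice (17% of genes, with 13.4% the other way), for 5 in HSCs over GMPs (35.6%, with 21.2% the other way) and for 3 in CLPs under GMPs (16.6%, with 36.4% above). The O-NR mice gave 7 (21.8%, with 14.1% the other way), 5 (36.5%, 23%) and 3 (18.6%, with 29.8% above).

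**Figure D2:**
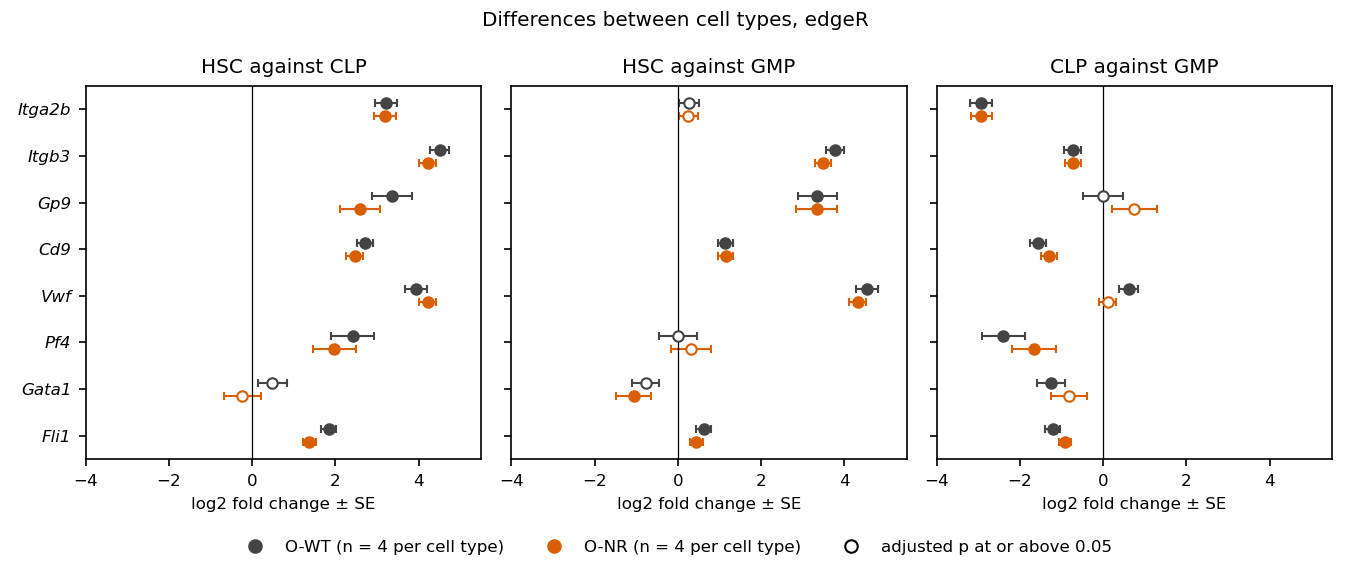
Log2 fold changes between cell types with their SE (edgeR) for the 8 genes tested, in O-WT and O-NR mice, 4 libraries per cell type; open symbols have an adjusted p at or above 0.05. The left panel has 7 genes to the right of 0 in both treatments, the middle panel places Itga2b and Pf4 near 0 and Gata1 left of it, and in the right panel Itga2b and Pf4 lie furthest left.

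Itga2b encodes the αIIb chain (CD41) of the fibrinogen receptor and lies at chr11:102453297-102470122 on the minus strand. In O-WT mice its CPM was 120, 94.1, 132 and 103 in HSCs, 9.41, 11.8, 29.4 and 8.96 in CLPs, and 83.0, 95.6, 44.7 and 80.7 in GMPs. Replicate 3 stood apart in both progenitors, highest of the CLPs and lowest of the GMPs, and the HSC and GMP libraries overlapped. Itga2b was 9.27-fold higher in HSCs than in CLPs (log2 fold change 3.21, SE 0.26, adjusted p = 9.2e-12, edgeR). Between HSCs and GMPs the log2 difference was 0.27 (SE 0.23, 95% interval -0.20 to 0.75) and was not called, and in O-NR mice it was 0.25 (SE 0.23). Under a scaling on abundant genes alone this difference was called, at 0.66 in O-WT and 0.63 in O-NR mice. CLPs were lower than GMPs by a log2 fold change of -2.94 (SE 0.26, adjusted p = 1.1e-10, edgeR).

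Itgb3 encodes the β3 chain that pairs with αIIb, and also with the αv chain (chr11:104608000-104670476, plus strand). It measured 363, 214, 320 and 245 CPM in O-WT HSCs, 16.1, 14.4, 20 and 8.62 in CLPs, and 18.7, 14.8, 16.6 and 19.6 in GMPs. Every HSC library lay above every CLP and GMP library, and the CLP and GMP libraries overlapped. The log2 fold change was 4.51 over CLPs (22.8-fold, SE 0.23, adjusted p = 2.4e-16) and 3.78 over GMPs (13.7-fold, SE 0.22, adjusted p = 1.8e-15, edgeR), the largest over CLPs among the 8 genes tested. Itgb3 was also called lower in CLPs than in GMPs, by -0.74 (adjusted p = 0.0046, edgeR) in O-WT and -0.73 in O-NR mice. That call was absent under upper quartile scaling (-0.32 and -0.40) and under scaling on abundant genes (-0.17 and -0.32).

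The 2 chains of the fibrinogen receptor thus had different cell type patterns. The ratio of Itga2b to Itgb3 reads per kilobase within a library, which does not depend on scaling, was 0.359 to 0.481 in the 8 HSC libraries of cohort 2, 0.633 to 1.59 in CLPs and 2.07 to 6.98 in GMPs. These 3 ranges of cohort 2 did not overlap. The 9 HSC libraries of cohort 1 lay between 0.355 and 0.689, and 1 of them was above the lowest CLP library. The medians of cohort 2 were 0.458, 0.963 and 4.64. These ratios rest on the length of merged exons, and are a description with no test. In O-WT CLPs Itga2b (2.73 CPM per kilobase) and Itgb3 (2.50) lay near the 95th percentile of the receptor genes (1.74). In O-NR CLPs they stood at 2.085 and 2.24, against 1.44. The part of such background reads in the CLP ratio was not tested.

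**Figure D3:**
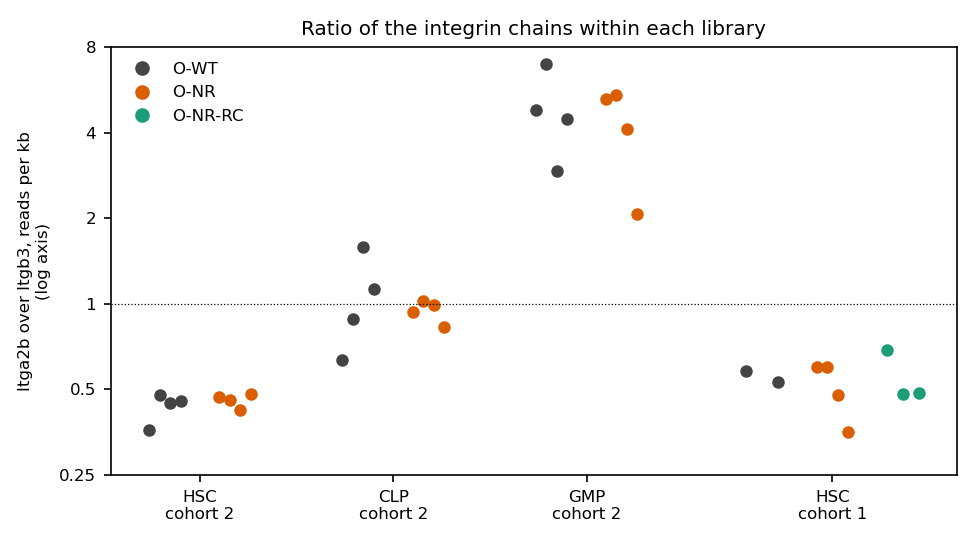
Ratio of Itga2b to Itgb3 reads per kilobase of merged exons (log axis), 1 point per library, by cell type, cohort and treatment, with a dotted line at equal levels. Within cohort 2 HSCs lie lowest, CLPs higher and GMPs highest, while the highest HSC library of cohort 1 (0.689) lies above the lowest CLP library (0.633), with O-WT and O-NR libraries intermixed within each cell type. In CLPs both chains are near the level of the olfactory and vomeronasal receptor genes.

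In GMPs, Itga2b was read beside markers of basophils, mast cells and eosinophils. A list of 10 basophil, mast cell and eosinophil markers summed to 1196 to 5513 CPM in O-WT GMPs, 2049 to 2969 in O-NR GMPs, 32.3 to 311 in CLPs and 14.5 to 39.5 in HSCs of cohort 2, with all 10 genes detected in each group. Among O-WT GMPs the library with the lowest sum, replicate 3 at 1196 CPM, also had the lowest Itga2b (44.7) and Gata1, but the highest Pf4 (9.68) and Vwf (24.3). Among O-NR GMPs replicate 4 had the lowest sum (2049) and the lowest Itga2b (28), Pf4, Gp9, Cd9, Vwf, Gata1 and Fli1. O-NR replicate 1 had nearly as low a sum (2129), with Itga2b at 70.0. O-WT replicate 1 had the highest sum (5513), with Itga2b at 83.0, below the 95.6 of O-WT replicate 2 (sum 4341). The part of basophils, mast cells and eosinophils in the levels was not tested.

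Gp1bb and Gp9 encode the β subunit of glycoprotein Ib and glycoprotein IX, partners in the receptor for von Willebrand factor. Gp1bb (chr16:18620317-18622403, minus strand) had 0 to 3 reads in each of the 24 libraries of cohort 2 and 2 to 10 in those of cohort 1. This gene has a single annotated exon, of which 92.9% is shared with exons of Sept5 and Gm49601 on the same strand, leaving 149 bases of its own. Those neighbours had 501 and 653 reads over all 33 libraries. A tool that leaves out reads shared by several genes would give few reads here whatever the expression, and how the counting treated them is not given in the sources used here, so its low level is uncertain.

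Gp9 (chr6:87778072-87779768, plus strand), which overlaps no other exon, measured 7.21, 6.17, 9.39 and 6.77 CPM in O-WT HSCs. The O-WT CLPs held 0.714, 1.29, 1.25 and 0.249 CPM, and the O-WT GMPs 0.770, 0.275, 0.530 and 0.851. All HSC libraries lay above all others, with 52 to 98 reads against 3 to 12. Since only its HSC libraries passed the filter, the values that follow are a description. The log2 fold change was 3.36 over CLPs (10.3-fold, SE 0.48, adjusted p = 7.9e-07) and 3.36 over GMPs (10.3-fold, SE 0.46, adjusted p = 2.7e-07, edgeR). CLPs and GMPs differed by 0.00 on the log2 scale (95% interval -0.97 to 0.96).

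Cd9 encodes a tetraspanin, a membrane organizer abundant on platelets and also known from stem cells (chr6:125460266-125494791, minus strand). It measured 45.0, 38.9, 50.1 and 49.7 CPM in O-WT HSCs, 5.60, 7.18, 11.1 and 8.38 in CLPs, and 17.8, 15.8, 16.6 and 18.3 in GMPs. The 3 cell types did not overlap and were ordered HSC, GMP, CLP. Cd9 was higher in HSCs by 2.71 over CLPs (6.56-fold, SE 0.19, adjusted p = 3.5e-13) and by 1.15 over GMPs (2.22-fold, SE 0.17, adjusted p = 1.7e-06), and lower in CLPs than in GMPs by -1.57 (SE 0.19, adjusted p = 7.0e-08, edgeR). Of its exon bases 10.7% are shared with Gm26728 on the opposite strand.

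Vwf encodes von Willebrand factor, the adhesive protein of alpha granules and of endothelium, and is the usual mark of platelet-biased stem cells (chr6:125546774-125686679, plus strand). O-WT HSCs measured 465, 415, 461 and 537 CPM, the CLPs 18.5, 37.0, 55.7 and 32.8, and the GMPs 12.1, 9.94, 24.3 and 21.2. Every HSC library lay far above every progenitor library, while CLPs and GMPs overlapped. The log2 fold change was 3.94 over CLPs (15.3-fold, SE 0.26, adjusted p = 5.6e-14) and 4.55 over GMPs (23.4-fold, SE 0.26, adjusted p = 2.2e-15, edgeR). In O-NR mice it was 4.21 and 4.32. Vwf was called higher in CLPs than in GMPs of O-WT mice by 0.61 (adjusted p = 0.029, edgeR), a call that 8 of 12 fits with 1 library left out did not make (0.32 to 0.75) and that the O-NR mice did not show (0.11, adjusted p = 0.66). The O-WT call was also absent with DESeq2 size factors (0.43), by DESeq2 (0.43) and with no filter (0.23). Under scaling on abundant genes Vwf was called in O-NR mice (0.51).

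Pf4 encodes platelet factor 4, a chemokine stored in alpha granules (chr5:90772435-90773383, plus strand). Its CPM in O-WT mice was 3.72, 6.28, 12.4 and 6.70 in HSCs, 0.238, 0.718, 3.76 and 1.82 in CLPs, and 1.67, 3.79, 9.68 and 8.85 in GMPs. The HSC and GMP libraries overlapped, with GMP replicate 1 below all HSC libraries, and 1 CLP library reached the lowest HSC library. Pf4 was higher in HSCs than in CLPs by 2.41 (5.33-fold, SE 0.52, adjusted p = 0.00043) and lower in CLPs than in GMPs by -2.40 (SE 0.52, adjusted p = 0.00037, edgeR). Between HSCs and GMPs the log2 difference was 0.01, with a wide 95% interval of -0.91 to 0.94. In O-NR mice the lower level in CLPs than in GMPs (-1.66, adjusted p = 0.012, edgeR) was not called without CLP replicate 4 (-1.5) or without GMP replicate 2 (-1.17), nor under scaling on abundant genes (-1.28).

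Fli1 encodes an ETS factor needed for the late steps of megakaryocyte maturation, and is active in stem cells too (chr9:32422204-32542861, minus strand). O-WT HSCs measured 214, 213, 196 and 230 CPM, CLPs 84.2, 68.7, 63.0 and 54.2, and GMPs 112, 112, 108 and 124, with no overlap between cell types. The log2 fold change was 1.83 over CLPs (3.57-fold, SE 0.19, adjusted p = 1.0e-09) and -1.21 for CLPs against GMPs (adjusted p = 2.8e-06, edgeR). The smaller difference of HSCs over GMPs, 0.62 (SE 0.18, adjusted p = 0.0050, edgeR), was not called in 6 of 12 fits with 1 library left out (0.43 to 0.66) or with DESeq2 size factors (0.38), and was 0.99 under scaling on abundant genes. O-NR mice gave 1.37, -0.92 and 0.45 for the same comparisons, all 3 called.

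Gata1 encodes the zinc finger factor that directs megakaryocyte and red cell development (chrX:7959260-7978071, minus strand). Its CPM was 3.8, 5.22, 7.28 and 4.42 in O-WT HSCs, 3.45, 6.46, 5.22 and 2.16 in CLPs, and 7.25, 9.44, 4.71 and 6.72 in GMPs. All 3 ranges overlapped, on 25 to 172 reads per library. HSCs and CLPs differed by 0.48 (SE 0.35, 95% interval -0.22 to 1.19, adjusted p = 0.31, edgeR). CLPs were called lower than GMPs by -1.25 (SE 0.34, adjusted p = 0.0031), a call absent under upper quartile scaling (-0.77) and scaling on abundant genes (-0.60). For HSCs against GMPs the value was -0.77 (adjusted p = 0.055) in O-WT and -1.06 (adjusted p = 0.043, edgeR) in O-NR mice, and 7 of the 12 left-out fits of each treatment crossed the threshold in opposite ways. In O-WT mice Gata1 was called lower with DESeq2 size factors (-1.04), by DESeq2 (-1.04) and with no filter (-1.11). The O-NR call was absent under upper quartile scaling (-0.80), scaling on abundant genes (-0.65), DESeq2 (-1.06) and 1 fit of all 24 libraries (-0.90). In O-NR mice CLPs and GMPs differed by -0.82 (adjusted p = 0.11), and with the animal as a replicate block by -1.08 (adjusted p = 0.025, edgeR). Of the 8 genes tested, Gata1 was the 1 that neither treatment called higher in HSCs than in CLPs or GMPs.

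Red cell transcripts gave a different picture from Gata1. A list of 13 red cell markers summed to 333 to 458 CPM in HSCs of cohort 2, 55.0 to 158 in CLPs and 20.3 to 34.5 in GMPs, with all 13 detected. The O-NR library of replicate 4 had the highest red cell sum both among HSCs (458) and among CLPs (158). HSC O-WT replicate 4 had nearly as high a sum (445.5), with Gata1 at 4.42 CPM, below O-WT replicates 2 and 3. In the O-NR libraries of replicate 4, Gata1 was the highest of its group, at 9.37 CPM in HSCs and 9.27 in CLPs. The other 3 O-NR libraries reached at most 3.02 in HSCs and 4.12 in CLPs. Pf4 reached 16.6 CPM in HSC O-NR replicate 4, against at most 6.40 in the other O-NR HSC libraries. The part of red cell progenitors in these values was not tested.

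Over the 24 libraries of cohort 2, cell type took 97.6% of the variance of log2 CPM of Itgb3, 96.3% of Vwf, 94.8% of Cd9, 94.3% of Fli1, 89.3% of Itga2b, 85.1% of Gp9, 46.5% of Pf4 and 22.3% of Gata1, beside a median of 50.7% over all genes. Gp9 passed the filter through HSCs alone, so its share follows in part from that filter and is a description only. Treatment within cell types took at most 5.40% (Gata1), beside a median of 4.25%. The genes most alike to each by Pearson correlation of log2 CPM over these 24 libraries, out of 22573 genes, were Clu (r = 0.994), Tgm2 (0.990) and Atp8a1 (0.990) for Vwf, Hlf (0.988) for Itgb3, Inf2 (0.982) for Cd9, Ptpn12 (0.980) for Fli1, Dach1 (0.975) for Itga2b, Npdc1 (0.964) for Gp9, Ppic (0.795) for Pf4 and Mrps33 (0.724) for Gata1. The libraries fall into 3 cell types, which these values mostly reflect. Within the 8 HSC libraries the 2 integrin chains correlated at r = 0.899, and Pf4 with Gp9 at 0.819 and with Gata1 at 0.754, values that share library and depth and are given as a description.

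Other platelet and megakaryocyte genes were read as 5 lists, beside 20.7% of all genes called higher and 9.57% lower in O-WT HSCs against CLPs, and 25.7% and 21% against GMPs. The lists were chosen with earlier results of these data known. A listed gene could also pass the filter through its HSC libraries alone, as Gp9 did. How many did so was not counted, so the counts of the lists are a description. Of 18 platelet receptors tested, 10 were higher and 2 lower in O-WT HSCs than in CLPs (median log2 fold change 1.06, all genes -0.04), and 10 higher and 1 lower than in GMPs (median 1.66, all genes 0.40). Pear1 (2.27 and 3.89) and F2r, the thrombin receptor PAR1 (2.90 and 3.41), were higher in HSCs than in CLPs and GMPs, and so was the laminin-binding integrin chain Itga6 (3.22 and 1.83). Fcer1g, the signalling chain of the collagen receptor and of Fc receptors, was lower in HSCs, by -1.24 and -3.08. The thromboxane receptor Tbxa2r was split, lower than in CLPs (-1.46) and higher than in GMPs (3.31).

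Of 13 alpha granule genes, 6 were higher and 3 lower in HSCs than in CLPs, and 5 higher and 4 lower than in GMPs (medians 0.46 and 0.47). Mmrn1 (multimerin 1) stood at 418 ± 35.8 CPM (SD, n = 4) in O-WT HSCs against 20.5 ± 4.47 and 5.08 ± 2.97 in CLPs and GMPs, Selp (P-selectin) was higher by 4.74 and 4.09, and Clu (clusterin) by 3.75 and 4.28. F13a1, the A chain of clotting factor XIII, went the other way, at 10.4 CPM in HSCs and 394 ± 96.9 in GMPs (log2 fold change -5.60), and Serpine2 was lower than in GMPs by -2.48. Ppbp, a chemokine gene and one of the most abundant platelet transcripts, was at 1.07 to 1.79 CPM in O-WT HSCs.

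Of 17 cytoskeletal and signalling genes, 12 were higher and 1 lower in HSCs than in CLPs, and 9 higher and 2 lower than in GMPs (medians 1.10 and 0.78). Cavin2 (5.34 and 5.11), Tbxas1, the thromboxane synthase (3.70 and 2.57), and Mylk, the myosin light chain kinase (1.10 and 2.17), were higher than in both. Rasgrp2, the activator of Rap1 in platelets, was lower than in both (-1.39 and -1.86), and filamin A (Flna) was lower than in GMPs (-1.29). Of 12 transcription factors, 10 were higher and 1 lower than in CLPs, and 9 higher and 0 lower than in GMPs (medians 2.36 and 1.83). Zfpm1, the FOG1 cofactor of Gata1, was at 352 ± 53.5 CPM in HSCs and 31.1 ± 5.17 in GMPs (log2 fold change 3.21), and Gata2 was 5.49 above CLPs, while Ets1 was -1.23 below CLPs. Meis1 (2.86 and 3.45) was higher than in both.

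Among 9 tetraspanins other than Cd9, 5 were higher and 2 lower in HSCs than in CLPs, and 4 higher and 3 lower than in GMPs (medians 0.90 and 0.41). Tspan32 was higher than in CLPs (0.97). Tspan33 (0.90 and 1.83), Cd81 (0.92 and 0.90) and Cd151 (0.99 and 0.75) were higher than in both. The leukocyte tetraspanins Cd37 (-2.86 and -2.22) and Cd53 (-2.23 and -2.10) were lower than in both, and Cd63, of granule membranes, was 3.65 above CLPs and -0.98 below GMPs. Counting a gene only where O-WT and O-NR mice gave the same call, the 5 lists had 9, 6, 12, 9 and 5 genes higher in HSCs than in CLPs, and 10, 5, 9, 9 and 4 higher than in GMPs, in the order given. Counted the same way, 2, 3, 1, 1 and 2 genes were lower than in CLPs, and 1, 4, 2, 0 and 3 lower than in GMPs. The share of all genes called in both treatments was not computed, so these counts have no background beside them.

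The effect of NR was tested within each cell type, 4 O-NR against 4 O-WT libraries. In HSCs of cohort 2 none of the 8 genes tested was called by edgeR, as 0% of 17364 genes were, with 667 genes at an unadjusted p below 0.05 (3.84%), none of them a member, and 7 genes called by DESeq2. Vwf measured 519, 450, 459 and 472 CPM in O-NR HSCs, within the range of the O-WT libraries given above. Its log2 difference was 0.04 (SE 0.13, 95% interval -0.23 to 0.32), Cd9 differed by 0.07 (-0.18 to 0.32), Fli1 by -0.08 (-0.31 to 0.16) and Itga2b by -0.09 (-0.39 to 0.21). Itgb3 measured 288, 212, 265 and 215 CPM in O-NR HSCs, a difference of -0.20 (-0.57 to 0.18). Without O-WT replicate 1, its highest library, the Itgb3 value was 0.02. Gp9 (0.08, -0.46 to 0.62), Pf4 (0.23, -0.66 to 1.11) and Gata1 (-0.27, -1.25 to 0.71) had wider intervals. The CPM ranges of O-WT and O-NR overlapped for all 9 genes in HSCs, where 1.51% of genes were higher and 1.58% lower without overlap.

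In CLPs 6 of the genes passed the filter and 0 were called by edgeR, beside 0% of 19909 genes, 639 of them at an unadjusted p below 0.05 and 0 called by DESeq2. Vwf measured 25.5, 21.1, 30.1 and 25.1 CPM in O-NR CLPs, inside the O-WT range, with a log2 difference of -0.32 (SE 0.21, 95% interval -0.75 to 0.10). Fli1 gave 0.28 (-0.12 to 0.68) and Itga2b -0.16 (-0.75 to 0.42), the latter at 11.9, 8.90, 11.9 and 12.8 CPM in O-NR CLPs. The O-WT value of Itga2b rests on replicate 3, the shallowest library and the one with the highest receptor sum of cohort 2, without which the difference was 0.22. The ranges of all 9 genes overlapped, as in GMPs, where 0.683% of genes were higher and 2.29% lower without overlap in CLPs and 2.1% and 1.39% in GMPs. Itgb3, Cd9 and Gata1 differed by 0.01, 0.24 and 0.32, with intervals that spanned 0.

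In GMPs 7 genes were tested and 0 called by edgeR, beside 0% of 13486 genes, 648 at an unadjusted p below 0.05 and 10 called by DESeq2. Fli1 had the narrowest interval of any value here, 0.03 (-0.14 to 0.20), at 127, 130, 112 and 105 CPM in O-NR GMPs. Cd9 (0.01, -0.32 to 0.33) and Itgb3 (0.03, -0.28 to 0.34) followed. Itga2b measured 70.0, 100.5, 86.7 and 28 CPM in O-NR GMPs, a difference of -0.11 (-0.73 to 0.50). The NR effect was also compared between cell types in all 24 libraries, with 0 members called by edgeR in any of the 3 comparisons, where 0.00443%, 0.00443% and 0% of 22573 genes were called and 537, 321 and 803 genes (2.38%, 1.42% and 3.56%) had an unadjusted p below 0.05. DESeq2 called 2, 0 and 0 genes. None of the members had an unadjusted p below 0.05 there.

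**Figure D4:**
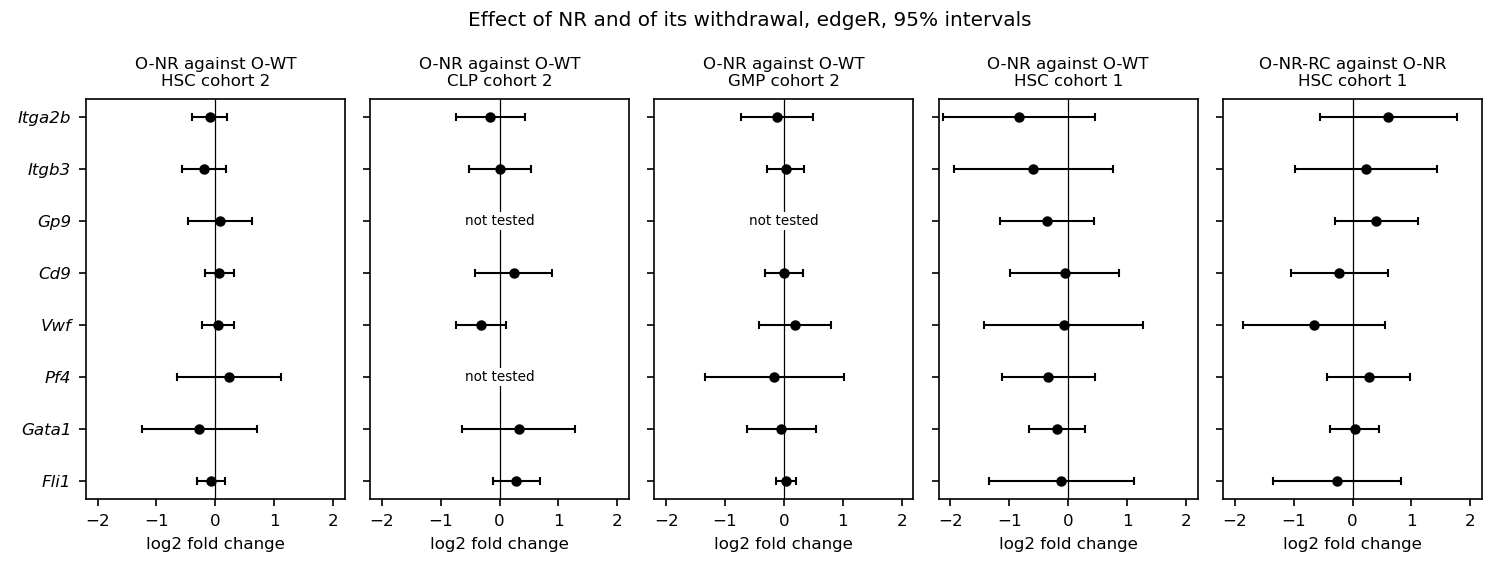
Log2 fold changes of O-NR against O-WT in the 3 cell types of cohort 2 (4 against 4 libraries) and in HSCs of cohort 1 (4 against 2), and of O-NR-RC against O-NR (3 against 4), with 95% intervals from edgeR. Every interval spans 0, and those of cohort 1 are wider, reaching from -2.12 to 0.46 for Itga2b.

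Cohort 1 asked the same of HSCs in a separate set of libraries, and added the withdrawal of NR. Itga2b measured 157 and 145 CPM in O-WT HSCs, 83.1, 95.3, 108 and 77.8 in O-NR HSCs, and 200, 86.6 and 80.4 after withdrawal. Itgb3 measured 292 and 295 CPM in O-WT, 150, 172, 245 and 237 in O-NR, and 314, 195 and 179 in O-NR-RC. For both chains every O-NR library lay below both O-WT libraries, and O-NR-RC replicate 1 lay above all other libraries. They were 2 of the 9 genes, where 3.18% of 31172 genes were lower and 1.37% higher without overlap. In the test Itga2b differed by -0.83 (SE 0.60, 95% interval -2.12 to 0.46, adjusted p = 1.00) and Itgb3 by -0.59 (SE 0.62, -1.94 to 0.76), not called. By edgeR 0% of 33350 genes were called in this comparison, 182 had an unadjusted p below 0.05, and DESeq2 called 0.

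The values of cohort 1 varied with the library. O-NR replicates 1 and 2 and O-NR-RC replicates 2 and 3, the 4 libraries of high receptor sum, had the 4 lowest values of Itgb3 and low values of Fli1 (97.5 to 118 CPM, against 142 to 173 in the other 5). Gata1 was highest in the same 4 libraries (9.99 to 11.4 CPM) and 5.38 to 9.25 in the others. Without them Itga2b differed by -0.58 (SE 0.16, adjusted p = 0.25, edgeR) between O-NR and O-WT, from 2 libraries each. Itgb3 differed by -0.16 in the same libraries and Vwf by 0.33. There 35 genes were called, none of them a member. With all 6 libraries, scaling on abundant genes gave -0.62 (SE 0.28) for Itga2b.

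**Figure D5:**
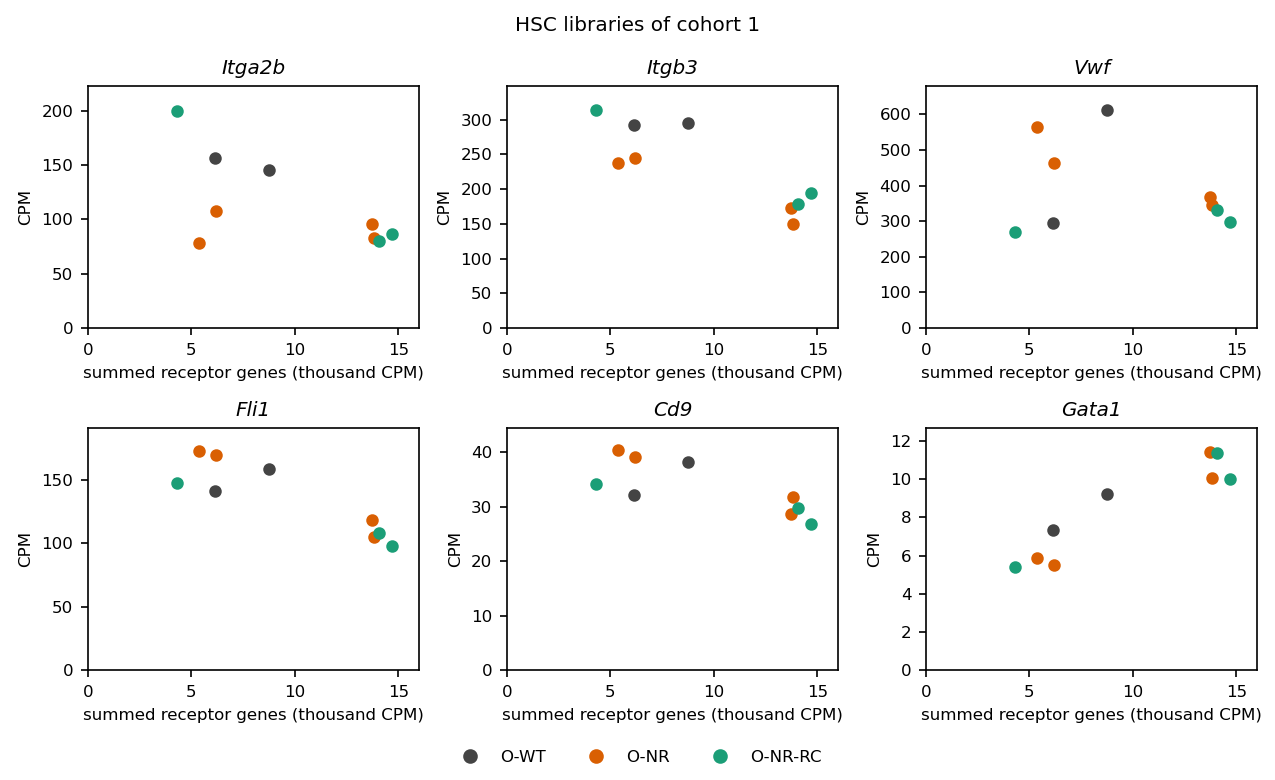
CPM of 6 of the genes in the 9 HSC libraries of cohort 1 against the summed CPM of olfactory and vomeronasal receptor genes. The 4 libraries of highest receptor sum hold the lowest Itgb3 and Fli1 points and the highest Gata1 points, and in the other 5 libraries the O-NR points for Itga2b and Itgb3 lie below O-WT.

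Vwf measured 295 and 612 CPM in the O-WT libraries of cohort 1, 346, 367, 463 and 564 in O-NR and 270, 298 and 332 in O-NR-RC. The O-NR-RC libraries were all below the O-NR libraries, and Vwf was the only one of the 9 genes to be so, where 0.375% of 31765 genes were, and 0.677% above. Against O-WT, Gp1bb alone was higher without overlap (1.74% of genes, with 2.77% lower), on 2 to 10 reads. The test value of Vwf for O-NR-RC against O-NR was -0.65 (SE 0.56, 95% interval -1.86 to 0.56, adjusted p = 1.00, edgeR), and -0.75 without the 4 libraries of high receptor sum. Of the O-WT libraries of Vwf 1 lay within the O-NR-RC range and the other above all O-NR libraries. Withdrawal of NR gave 0 members called by edgeR against O-NR (0% of 33350 genes, 97 at an unadjusted p below 0.05, 2 called by DESeq2) and 0 against O-WT (0% of genes, 265 at an unadjusted p below 0.05, 0 by DESeq2). Itga2b differed by 0.61 (SE 0.54) between O-NR-RC and O-NR, a value that turned to -0.55 without O-NR-RC replicate 1. Itgb3 (0.24), Gp9 (0.40) and Pf4 (0.27) turned to -0.59, -0.22 and -0.24 in the same way, and were 0.57, 0.83 and 0.68 without the 4 libraries of high receptor sum. Left with that 1 library against O-NR replicates 3 and 4, in the fit without the 4 libraries of high receptor sum, Itga2b differed by 1.30. A group of 1 library has no spread of its own, so no test result is given for it.

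With HSCs of both cohorts in 1 fit, O-WT and O-NR only and cohort as a term, none of the 8 genes was called by edgeR, as 0% of 23413 genes were, with 216 genes (0.923%) at an unadjusted p below 0.05 and 0 called by DESeq2. Itga2b was the 1 member among those 216, at -0.36 (SE 0.17, 95% interval -0.71 to -0.01, unadjusted p = 0.047, adjusted p = 1.00). Scaling on abundant genes gave -0.33 and the fit without the libraries of high receptor sum -0.25. The effect on Itga2b differed between cohorts by 0.73 (SE 0.32, unadjusted p = 0.033, adjusted p = 0.98, edgeR), as -0.09 in cohort 2 and -0.83 in cohort 1, where 0% of 23413 genes were called, 436 (1.86%) had an unadjusted p below 0.05 and DESeq2 called 0. Vwf stood at 0.02 (-0.41 to 0.46) in the joint fit, Cd9 at 0.05 (-0.26 to 0.37) and Itgb3 at -0.33 (-0.76 to 0.11).

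The 5 lists were read the same way for NR in HSCs of cohort 2. None of their 67 genes tested was called by edgeR, as 0% of 17364 genes were. Of the 67, 5 had an unadjusted p below 0.05 by edgeR, beside 667 (3.84%) of all genes. The medians were 0.17 for platelet receptors, 0.07 for granule genes, -0.03 for cytoskeletal genes, 0.02 for transcription factors and 0.14 for tetraspanins, beside -0.02 for all genes. In cohort 1 the medians were -0.21, -0.00, -0.16, -0.22 and -0.14, beside -0.01 for all genes. None of the listed genes was called there, as 0% of 33350 genes were. Without the 4 libraries of high receptor sum the medians of cohort 1 were 0.02, 0.05, 0.23, 0.18 and 0.09.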

How the data were processed

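Total RNA of sorted HSCs, CLPs and GMPs was sequenced by the authors with a SMARTer stranded kit, and the submitters' processing notes name cutadapt, STAR, featureCounts and mm10, with no versions. The authors deposited raw counts of reads per gene symbol, 1 table per library, with no normalization; strand setting and treatment of overlapping genes are not given in the sources used here. From these counts CPM was computed by dividing by the library total. Tests used edgeR 4.0.16 (R 4.3.3): a gene was kept when its CPM exceeded 3 in a number of libraries equal to the smallest group, and the data were scaled by TMM and tested by quasi-likelihood with Benjamini-Hochberg adjustment over all genes, at 0.05. The test was checked on simulated data. Correlations used log2 CPM with a prior count of 2.

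Groups came from the labels. Each comparison between cell types took the 12 libraries of 1 treatment, and each NR comparison the libraries of 1 cell type and cohort. Alternatives were DESeq2 1.42.0, its size factors, upper quartile scaling, no filter on low counts, a replicate block, 1 fit of all 24 libraries and leaving out each library. Scaling on genes with a mean above 30 CPM and leaving out 4 libraries of cohort 1 were chosen after seeing the data. The 9 genes and the 5 lists were chosen with earlier results of these data known. Besides the 9 genes, the text names from each list up to 3 genes higher and 2 lower in O-WT HSCs than in GMPs, and 2 higher and 1 lower than in CLPs, by smallest p among those called, the gene of smallest p for NR in HSCs of cohort 2 where it was below 0.01 (none was), the genes most alike in pattern (3 for Vwf, 1 for the others), and genes whose exons overlap a member's. Some genes that this rule names are not reported here. Ppbp was added after its values were seen.

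Replicate numbers pair cell types of 1 treatment in cohort 2, because the deposited table names give the same animal number to the HSC, CLP and GMP library of a number; the correlations of their deviations ran from -0.469 to 0.354. O-WT and O-NR libraries of 1 number share no animal by the sources used here, and their correlations ran from -0.263 to 0.588, not all above 0.1. No pair of replicates was a duplicate: chi-square over degrees of freedom was 1.96 at its lowest over 46 pairs. Gene positions and exon lengths are GENCODE vM21 on mm10, matched by symbol, and promoters are RefSeq on GRCm38.p6. Intervals are 95%.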

Additional observations from a re-analysis of the deposited data

Results flagged for a closer look

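Of 57 groups of libraries tested for a single library apart from the rest, 1 was marked, where chance marks about 1 in 20. Itga2b measured 29.42 CPM in CLP O-WT replicate 3 of cohort 2, and its gap to the next library took 0.862 of the range of the group. This library was the shallowest and had the highest sum of olfactory and vomeronasal receptor genes of cohort 2; the part of either in the value was not tested. Without it the NR effect on Itga2b in CLPs was 0.22 instead of -0.16, and neither value was called.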

How the results depend on the processing

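Of 2654 fold changes of the genes refitted under an alternative, 29 reversed, and 167 more changed sign by less than 1 SE in values that no fit called. Without a filter on low counts, Itga2b in HSCs against GMPs (O-WT) was -0.029 and Vwf in CLPs against GMPs (O-NR) -0.091. Scaling on abundant genes gave 0.57 for Gp9 in CLPs against GMPs (O-WT), and in cohort 1 0.12 for Gata1 under NR and 0.24 for O-NR-RC against O-WT. Without the 4 libraries of high receptor sum, O-NR-RC against O-WT was 0.71 for Itga2b, 0.41 for Itgb3, 0.28 for Cd9, 0.45 for Pf4 and 0.29 for Fli1, and the difference of the NR effect between cohorts was -0.20 for Cd9 and -0.36 for Fli1. The cause was not tested.

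Leaving out 1 library turned the sign of Gata1 in HSCs against CLPs of O-NR mice (-0.93 to 0.42) and under NR in CLPs (-0.22 to 0.59), both without CLP O-NR replicate 4, and of Itga2b in HSCs against GMPs (O-WT, -0.013 to 0.38) and under NR in CLPs (-0.24 to 0.22). NR in HSCs of cohort 2 ran from -0.33 to 0.016 for Itgb3 and, without O-NR replicate 4, from -0.33 to 0.59 for Pf4. Pf4 ran from -0.22 to 0.88 in HSCs against GMPs (O-NR), -0.79 to 0.32 for NR in cohort 1, -0.30 to 0.32 in both cohorts, -0.13 to 1.06 for the difference between cohorts, -0.24 to 0.48 for O-NR-RC against O-NR and -0.57 to 0.54 against O-WT. O-NR-RC against O-NR ran from -0.55 to 0.96 for Itga2b, -0.59 to 0.53 for Itgb3 and -0.22 to 0.64 for Gp9, which ran from -0.58 to 0.28 against O-WT. The difference between cohorts ran from -0.42 to 0.55 for Vwf. The genes called by NR over all genes ran from 0 to 7 in HSCs, 0 to 1 in CLPs and 0 to 8 in GMPs, from 0 to 1 for each O-NR-RC comparison, and from 1 to 2 and 0 to 1 for the difference of HSCs from CLPs and GMPs.

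Under the replicate block, Gata1 in CLPs against GMPs (O-NR) was -1.08 and called, and the block changed no other cell type call of the 9 genes. For NR the numbers share no animal. There the block gave 9 genes called in HSCs and 3 in CLPs. For the difference between cohorts it called 3293 of 23413 genes. Among them were 4 of the 9 (Itga2b 0.98, Itgb3 1.01, Cd9 0.60, Fli1 0.66), of which Gp1bb was not tested.

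Upper quartile scaling called 3 of the genes, not 5, in CLPs against GMPs of O-NR mice. NR in HSCs gave 0 genes in the reported fit, 1 under upper quartile scaling, 39 with no filter, 7 with DESeq2 and 1 on abundant genes. With no filter CLPs gave 1 and GMPs 6, and DESeq2 gave 10 in GMPs. Without the libraries of high receptor sum, cohort 1 gave 35 genes for NR, 88 for O-NR-RC against O-NR (1 of them Itga2b) and 99 against O-WT, and DESeq2 gave 2 for O-NR-RC against O-NR. The difference of HSCs from CLPs (1 gene) had 2 under DESeq2 size factors, upper quartile scaling, DESeq2 and abundant genes and 14 with no filter; that of HSCs from GMPs (1 gene) had 0, 6 and 0 under upper quartile scaling, no filter and DESeq2.

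Other scalings moved the median of all genes by -0.27 to 0.59 between cell types and -0.29 to 0.43 elsewhere. The share of calls that were higher in HSCs than in GMPs of O-WT mice was 55.0%, and 40.0% with DESeq2 size factors and 72.8% on abundant genes; in CLPs against GMPs it was 56.2%, 48.9% and 83.0%, and in HSCs against CLPs 68.4%, 57.0% and 52.2%. In O-NR mice HSCs against GMPs gave 45.5% and 68.2% on abundant genes, and CLPs against GMPs 48.3% and 77.5%. Small differences between cell types therefore depend on the scaling, and counting error weighs most on Gp9, Pf4 and Gata1, which have few reads. The low counts of Gp1bb are uncertain for the overlap given above.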
